A study of Mus musculus with 4 samples.

Results

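The loci described here are those of 8 transcription and chromatin factors of the pluripotency network: Pou5f1, Nanog, Sall4 and Utf1, which act in naive and primed cells, and Esrrb, Klf4, Tfcp2l1 and Prdm14, which belong mainly to the naive state. They were studied through OTX2 binding regions on the mouse genome. A region belongs to a gene when its midpoint lies within the gene span, with preference for the shortest span, and otherwise to the protein-coding gene whose end is nearest, up to 100 kb away. By this rule the 8 genes held 40 of the 39615 deposited regions. OTX2 was mapped by CUT&RUN, in which an antibody directs a nuclease to a chromatin protein and the released DNA is sequenced. Every cell line carried OTX2 with an HA tag and is named OTX2-dTAG-EGFP in the labels (dTAG is a tag that allows a protein to be degraded on demand, and no degrader is recorded). All had the genotype BL6/129 hybrid.

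The 3 anti-HA libraries came from separate clones, 7H, 7H1 and 7H2, and the 1 control IgG library came from 7H2. All 4 are labelled primitive streak (PS), reached from epiblast stem cells (EpiSCs) by culture with Activin A (40 ng/ml) and the WNT pathway activator CHIR (3 uM) for 16 h. The EpiSC medium held Activin A at 20 ng/ml, FGF2 at 12.5 ng/ml and NVP at 175 nM. Definitive endoderm (DE) was obtained 24 h later with Activin A at 100 ng/ml and the BMP receptor inhibitor LDN at 100 nM. The deposited values are 4 region lists, named by stage: 379 regions of EPI and PS, 1634 of PS only, 6157 of PS and DE and 31445 of DE only. Each list name has the words only in, and no list is named for EPI alone, for EPI and DE, or for all 3 stages. Regions of those kinds would not appear in the counts below. EPI is not spelled out in the labels. None of the 4 libraries is labelled EPI or DE, so the libraries and controls behind those parts of the lists are unknown. The lists hold positions alone, with no height and no value per library, so depth is unknown, no spread between clones can be given, the labelled stage cannot be checked against marker expression, and no test over samples exists. All statements below are therefore counts and positions, most of them set beside the same count over all genes or regions.

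POU5F1 (OCT4) and NANOG stand at the centre of the network that keeps epiblast cells pluripotent, and their genes stay active for a time as cells enter the streak. ESRRB, KLF4, TFCP2L1 and PRDM14 sustain the naive state and are lowered when cells become primed. OTX2 is a homeodomain factor that promotes the exit from the naive state, acts in the primed epiblast and later in anterior endoderm, and prefers the DNA letters TAATCC.

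Among the 6 genes with a promoter entry in the reference, Nanog alone had a region over its promoter, so its letters are shown first. The sequence is the RefSeq promoter entry of the first of 2 Nanog starts (GRCm38.p6, which is mm10), chr6:122707239-122707538, plus strand. It begins 250 bases before the start site. Capitals in the first line mark the 144 bases that lie in the PS only region. In the second line, chr6:122707402-122707467, capitals mark 3 short motif matches.
Nanog promoter: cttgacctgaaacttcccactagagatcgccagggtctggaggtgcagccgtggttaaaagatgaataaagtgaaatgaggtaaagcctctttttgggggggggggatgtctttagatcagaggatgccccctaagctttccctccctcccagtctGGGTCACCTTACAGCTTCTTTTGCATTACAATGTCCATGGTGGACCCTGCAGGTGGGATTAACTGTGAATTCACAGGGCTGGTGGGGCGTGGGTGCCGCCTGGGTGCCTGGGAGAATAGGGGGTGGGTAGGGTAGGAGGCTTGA
Nanog motif stretch: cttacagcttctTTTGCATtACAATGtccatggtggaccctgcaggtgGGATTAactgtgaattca

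OTX2 regions were assigned to 7 of the 8 genes, and the exception was Tfcp2l1, which had 2 regions of neighbouring genes within 100 kb. DE only regions lay at 7 of 8 genes (27 regions), PS and DE regions at 5 (10 regions), EPI and PS regions at Pou5f1 and Utf1 (1 each) and a PS only region at Nanog. Over all 21883 protein-coding genes, 50.1% held a DE only region, 16.3% a PS and DE region, 5.6% a PS only region and 1.45% an EPI and PS region. A region of any list was held by 7 of the 8 genes and by 54.7% of all genes. A region of any list that includes PS was held by 6 of the 8 genes and by 20.1% of all genes. The stretch of genome from which regions are assigned to a gene, its territory, had a median of 82.5 kb for the 8 genes and 45.1 kb for all genes, and the part of territory length in these counts was not tested. All 5 genes with a PS and DE region also held a DE only region, as did 79.8% of the 3564 genes with a PS and DE region.

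**Figure D1:**
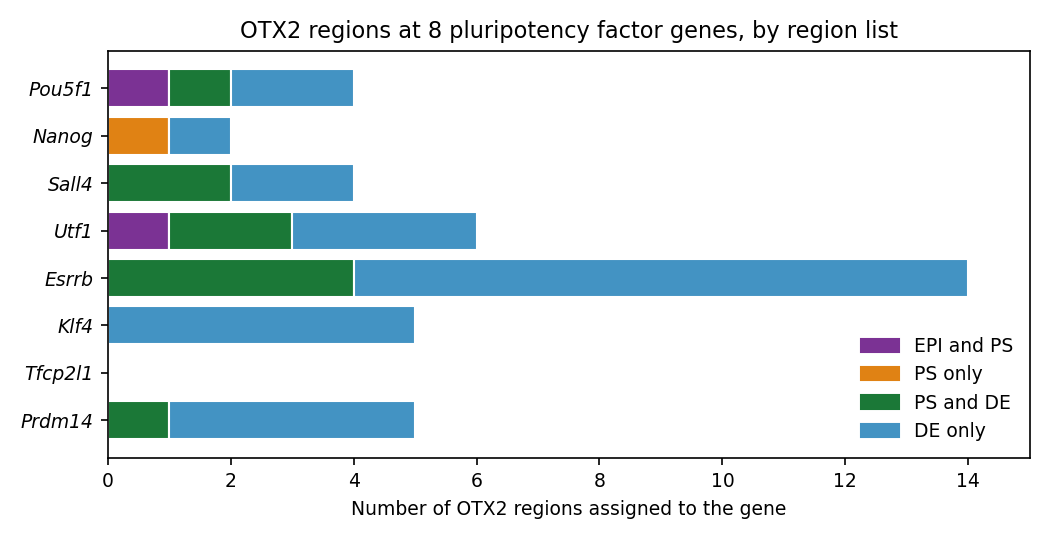
Number of OTX2 regions assigned to each of the 8 genes (x axis), coloured by region list. Esrrb has 14 regions and Tfcp2l1 has 0; EPI and PS regions appear at Pou5f1 and Utf1 and the PS only region at Nanog.

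By the assignment used here, lists that include PS gave more of the regions at the 4 factors of naive and primed cells than at the 4 naive factors. Pou5f1, Nanog, Sall4 and Utf1 held 16 regions, of which 8 were in lists that include PS. Each of these 4 genes had at least 1 such region. Esrrb, Klf4, Tfcp2l1 and Prdm14 held 24 regions, of which 5 were in lists that include PS, and these 5 lay at Esrrb and Prdm14. The share in lists that include PS was 20.8% for the naive factors and 20.6% for all regions, both below the 8 of 16 of the first 4 genes. This grouping follows the known roles but was made with the counts known, regions at 1 gene share their locus, and the difference was not tested. Every region within 100 kb, neighbours' regions included, was also counted for each gene. DE only regions were 7 of 10 at Pou5f1, 13 of 17 at Nanog, 3 of 10 at Sall4 and 8 of 12 at Utf1. They were 15 of 21 at Esrrb, 5 of 5 at Klf4, 2 of 2 at Tfcp2l1 and 8 of 11 at Prdm14. The contrast between the groups was weaker by that count.

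Pou5f1, which encodes the POU factor OCT4 (chr17:35506032-35510777, plus strand), held 4 regions of 3 lists within 6.94 kb. The EPI and PS region, chr17:35504882-35505049, was 168 bp wide and lay 1.07 kb upstream of the start site. The PS and DE region, chr17:35507228-35507466, was 239 bp wide and lay inside the gene, 1.31 kb downstream of the start. Both were wider than the medians of their lists, 110 and 123 bp. The DE only regions lay 3.4 kb upstream, chr17:35502575-35502693, and inside the gene, 3.44 kb downstream of the start. The 4 regions thus lay on both sides of the start, and the smallest gap between neighbours was 1.96 kb. Mouse Pou5f1 is known for a proximal enhancer just upstream of its promoter, used in the epiblast, and a distal enhancer farther upstream, used in naive cells. The annotation used here marks neither, so overlap with them was not measured.

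Regions of 3 or more lists were held by Pou5f1 and Utf1 among the 8 genes, and by 2.75% of all genes. The territory of Pou5f1 is 21.5 kb, and its 4 regions correspond to 18.6 regions per 100 kb. A density at least this high was found for 1.35% of genes, and the median over all genes was 0.88. The RefSeq promoter entry at the 5′ end of Pou5f1 overlapped no region and held none of the letters searched. The entry of a second start inside the gene, chr17:35508557-35508856, held TAATCC on the other strand, 31 bases before that start, and CATTGT on the other strand, and overlapped no region either.

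Nanog, a homeodomain factor gene (chr6:122707489-122714633, plus strand), held 1 PS only and 1 DE only region. The PS only region, chr6:122707395-122707570, was 176 bp wide and covered the start site, from -94 to 81 with the start site as 0. It was wider than the PS only median of 115 bp, and its nearest neighbour of any list was 12.5 kb away. Among the 17491 genes with a promoter entry, 67 (0.383%) had a PS only region overlapping a promoter and 23 (0.131%) had one over a start site. The DE only region, chr6:122720100-122720230, lay 5.53 kb past the other end of the gene. Of the 40 regions, only this PS only region overlapped a promoter entry of its own gene, in 6 genes with an entry. A promoter overlapped by a DE only region was found in 0 of the 6 and in 15.9% of all genes with an entry. For PS and DE regions the values were 0 of the 6 and 2.2%, for EPI and PS regions 0 of the 6 and 0.0686%, and for any list 1 of the 6 and 18.4%.

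The Nanog promoter held TAATCC as GGATTA on the printed strand, with its first letter at -39. This match lay inside the PS only region, 29 bp from the region's midpoint. TTTGCAT at -75, which is ATGCAAA on the other strand and part of the POU octamer, and ACAATG at -67, which is CATTGT on the other strand and a core bound by SOX factors, also lay inside the region, with a single letter between them. The mouse Nanog promoter is known for adjoining OCT and SOX sites. Counting both strands, TAATCC occurs in 6.42% of the 21262 promoters of protein-coding genes, ATGCAAA in 4.23% and CATTGT in 11.0%. Of the 71 promoters overlapped by a PS only region, 5 (7.04%) held TAATCC anywhere in their 300 bases, as did 45 (11.0%) of the 408 overlapped by a PS and DE region and 182 (6.09%) of the 2989 overlapped by a DE only region. Of promoters overlapped by no region, 6.36% held it. Nanog has 2 overlapping promoter entries, with starts at chr6:122707489 and chr6:122707565. Both are overlapped by the PS only region and hold TAATCC, so Nanog itself is part of the 5 and of the 71. The full octamer ATGCAAAT, of which ATGCAAA is a part, the forkhead letters TGTTTAC, the T-box letters TTCACACC and the GATA letters AGATAA were not in the Nanog promoter. They occur in 1.66%, 3.01%, 0.705% and 9.65% of promoters. ATGCAAA and CATTGT were added to the search after the promoter had been read. A match describes letters and does not show binding. CATTGT also occurred without a region, in the promoter of Esrrb and in that of the second Pou5f1 start.

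Nanog lies in a group of pluripotency genes on chromosome 6, with Dppa3 77.2 kb and Gdf3 97.4 kb to its lower-coordinate side and the glucose transporter gene Slc2a3 13.2 kb to its other side. Regions within 100 kb of Nanog numbered 17, of which 2 were assigned to it, 10 to Slc2a3, 3 to Dppa3, 1 to Gdf3 and 1 to Foxj2. Among these were 3 PS and DE regions, 1 at Dppa3 and 2 at Slc2a3. The nearest of them, chr6:122762633-122762743, lay 48.1 kb from Nanog. Most regions around Nanog thus had a nearer gene.

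**Figure D2:**
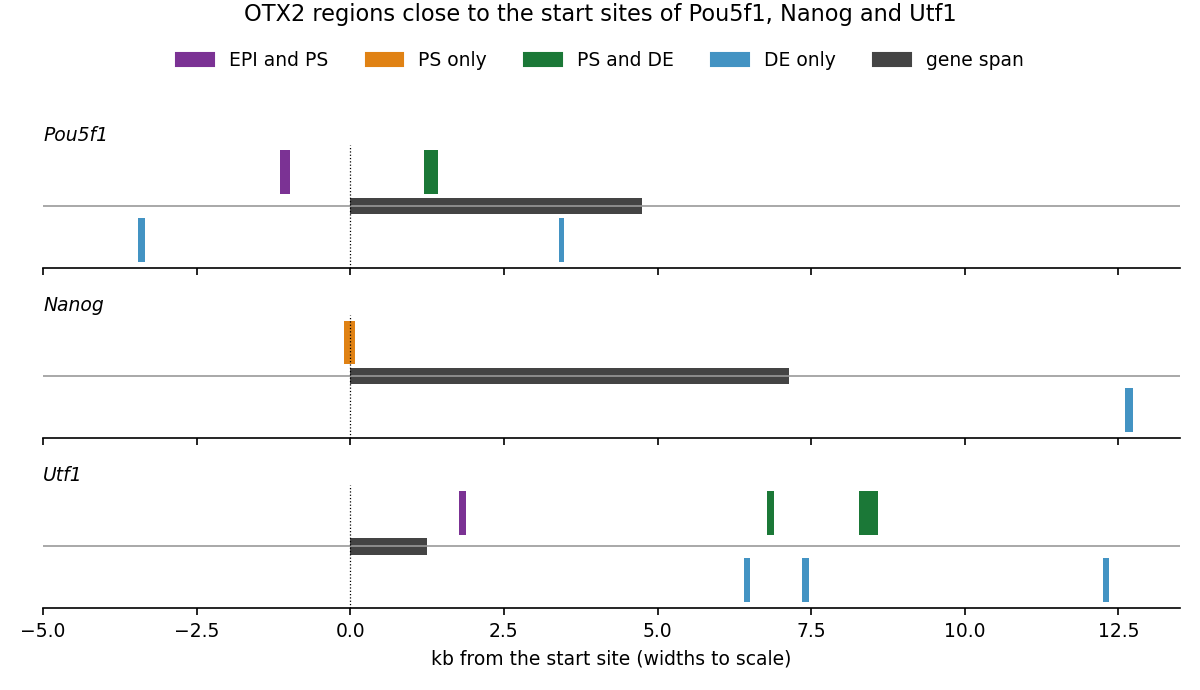
Regions near the start sites of Pou5f1, Nanog and Utf1, in kb from the start site (dotted line), with widths to scale; DE only regions are drawn below the line and the other lists above it. The PS only region sits on the start of Nanog, and the EPI and PS regions lie 1.07 kb upstream of Pou5f1 and 0.573 kb past the end of Utf1.

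Utf1, a chromatin-bound factor gene expressed in pluripotent cells (chr7:139943856-139945112, plus strand), held 6 regions of 3 lists, and all 6 lay downstream of the gene. The EPI and PS region, chr7:139945626-139945745, was nearest, 0.573 kb past the gene end and 1.83 kb from the start site. The PS and DE regions followed at chr7:139950635-139950745 and chr7:139952129-139952438, 5.58 and 7.17 kb past the end. The second of these, at 310 bp, was the widest of the 40 regions. Among the DE only regions, the one nearest the start, chr7:139950272-139950364, lay 5.21 kb past the end, and the others lay 6.15 and 11.0 kb past it. DE only and PS and DE regions alternated there, with gaps of 270, 460 and 802 bp. Mouse Utf1 is known for an enhancer in its 3′ flank that is bound by OCT4 and SOX2, and overlap with it was not measured.

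Utf1 had the highest density of the 8 genes. Its territory is 16.0 kb, which gives 37.5 regions per 100 kb, and 0.238% of genes reached that density. At least as many regions as its 6 were held by 6.79% of genes. A second EPI and PS region, chr7:139966962-139967131, lay 21.9 kb from Utf1 and was assigned to Spef1l. Pou5f1 likewise had a second EPI and PS region within 100 kb, chr17:35548794-35548883, 38.1 kb away and assigned to Cdsn.

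Sall4, a zinc finger factor gene (chr2:168748332-168767201), held 2 PS and DE and 2 DE only regions. Inside the gene, the PS and DE region chr2:168762652-168762798 lay between the DE only regions, with gaps of 134 and 162 bp. The DE only region nearest a gene end was chr2:168762961-168763128, 4.16 kb from it. The other PS and DE region, chr2:168807750-168807898, lay 40.6 kb outside the gene on the higher-coordinate side. Farther on that side, 5 PS and DE regions and 1 DE only region assigned to Zfp64 lay 68.7 to 74.3 kb from Sall4. Within 100 kb of Sall4 there were thus 7 PS and DE regions and 3 DE only regions. The PS and DE regions 72.9 to 74.3 kb away stood close together, and 2 of them were only 57 and 38 bp wide. The 7 need not be separate sites, and the share of all genes with such counts was not measured.

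Esrrb, which encodes an orphan nuclear receptor (chr12:86361117-86521628, plus strand), held 14 regions, the most of the 8 genes. At least as many were held by 0.791% of all genes. Esrrb is also the longest of them, at 161 kb, with a territory of 272 kb, and its density of 5.14 regions per 100 kb was reached by 15.4% of genes. Distances are from the start at the 5′ end of the gene, and a second start inside it, chr12:86421644, was not used for them. The 4 PS and DE regions all lay inside the gene, and the first of them was the region nearest the 5′ start. They were chr12:86395435-86395579 and chr12:86404050-86404225, 34.4 and 43.0 kb from the start site, and chr12:86471567-86471693 and chr12:86493524-86493647, 111 and 132 kb from it. Of the 10 DE only regions, 6 lay inside the gene and 4 beyond its far end, 26.4 to 46.4 kb past it. The one nearest the start was chr12:86398858-86399071, 37.8 kb from it and between the first 2 PS and DE regions. Close pairs of DE only regions stood near the far end, with a gap of 83 bp, and beyond it, with a gap of 149 bp. 10 or more DE only regions were held by 1.17% of all genes.

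Klf4, a zinc finger factor gene (chr4:55527137-55532475, minus strand), held 5 DE only regions and none of the other lists. A single region lay inside the gene, chr4:55530377-55530484, 2.04 kb from the start site. Another lay 9.44 kb upstream, and 3 lay past the gene end, by 0.532, 12.3 and 62.9 kb. The farthest, chr4:55464117-55464396, was 280 bp wide, while the other 4 were 73 to 108 bp and below the DE only median of 119 bp. In mouse embryonic stem cells Klf4 is known to be driven by enhancers far downstream of the gene, and overlap with them was not measured. No region of another gene lay within 100 kb of Klf4. With reach extended to 1 Mb, its count was 15.

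Prdm14, a PR domain factor gene needed in the germ line and in naive cells (chr1:13113428-13127163), held 1 PS and DE and 4 DE only regions, all outside the gene. The PS and DE region, chr1:13132158-13132403, was 246 bp wide and lay 5.12 kb from the higher-coordinate end. Another PS and DE region stood 2.04 kb farther on, chr1:13134440-13134655, and was assigned to Ncoa2. The 4 DE only regions lay together on the opposite side, 29.8 to 39.9 kb from the gene, and chr1:13083503-13083742 was the nearest. A PS only region, chr1:13018698-13018808, lay 94.7 kb away and was assigned to Slco5a1.

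Tfcp2l1, a CP2 family factor gene (chr1:118627923-118685168, plus strand), held 0 regions of any list in a territory of 141 kb. The same was true of 45.3% of all genes, but their median territory was shorter, 45.1 kb. The share among genes with territories as long as that of Tfcp2l1 was not measured. The nearest DE only region, chr1:118595632-118595732, lay 32.2 kb outside it and was assigned to Clasp1. The nearest PS only and PS and DE regions lay 209 and 229 kb away, at Gli2. A region below the authors' threshold would not be listed, nor, by the list names, would one of EPI alone or of all stages together. Absence from the lists thus does not show absence of binding.

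**Figure D3:**
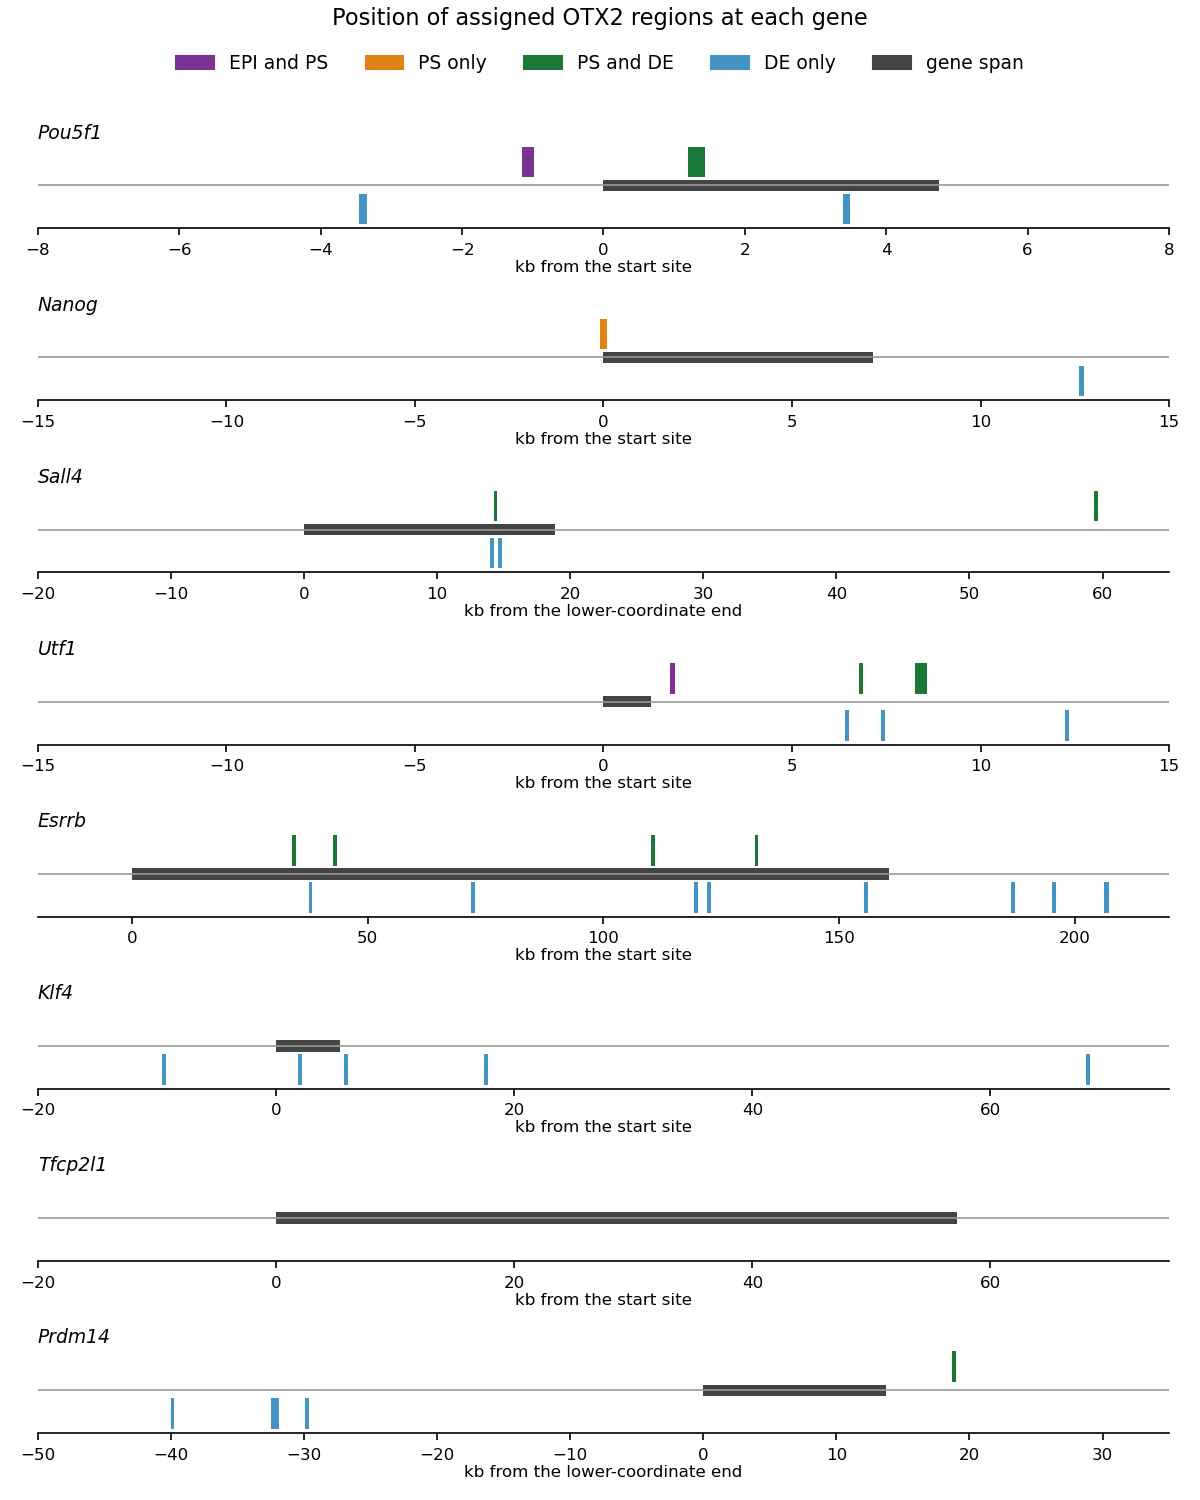
Assigned regions at each of the 8 genes, in kb from the start site, or from the lower-coordinate end for Sall4 and Prdm14; the scale differs between panels, narrow regions are drawn at a minimum width, and DE only regions are below the line. At Esrrb all 4 PS and DE regions lie inside the gene, and at Prdm14 the PS and DE region and the 4 DE only regions lie on opposite sides.

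Several regions at the 8 genes stood in close groups. Of the 40 regions, 12 had a neighbour of any list within 500 bp, 4 at Esrrb, 3 each at Sall4 and Utf1 and 2 at Prdm14. Among all regions 10.9% had such a neighbour. A midpoint within 1 kb of a protein-coding gene end was found for 3 of the 40, at Nanog, Utf1 and Klf4, and for 13.3% of all regions. Within 2.5 kb the values were 7 of the 40 and 19.4%, and within 5 kb 13 of the 40 and 26.4%. Of the 40, 16 lay inside their gene (10 of them in Esrrb), and of all regions 47.1% lay inside a gene. A PS and DE midpoint other than the region's own lay within 50 kb of 29 of the 40 regions, and of 35.6% of all regions. Within 10 kb the values were 16 of the 40 and 13.4%, and within 200 kb 39 of the 40 and 70.7%. Regions of 1 locus share their neighbours, so these shares are not independent values.

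Most PS and DE regions at these genes were above the median width of their list, and most DE only regions were not. Esrrb alone gave 4 of the PS and DE and 10 of the DE only regions. Of the 10 PS and DE regions, 9 were wider than the list median of 123 bp, and their own median was 148 bp, with a range of 111 to 310 bp. The 9 include regions of 124 and 127 bp, just above that median. Those of 176, 239, 246 and 310 bp were above the list's upper quartile of 174 bp. Of the 27 DE only regions, 9 were wider than the list median of 119 bp, and their own median was 105 bp, with a range of 71 to 280 bp. Over the whole lists, 49.6% of PS and DE and 49.7% of DE only regions were wider than the median. A region shared by stages can be trimmed when peaks of the stages are matched, and that step is not described in the sources used here. The smallest width was 2 bp in the PS and DE list and 5 bp in the EPI and PS list. It was 77 bp for PS only and 62 bp for DE only. Trimming was not tested, and widths of shared and single-stage lists may not be comparable.

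**Figure D4:**
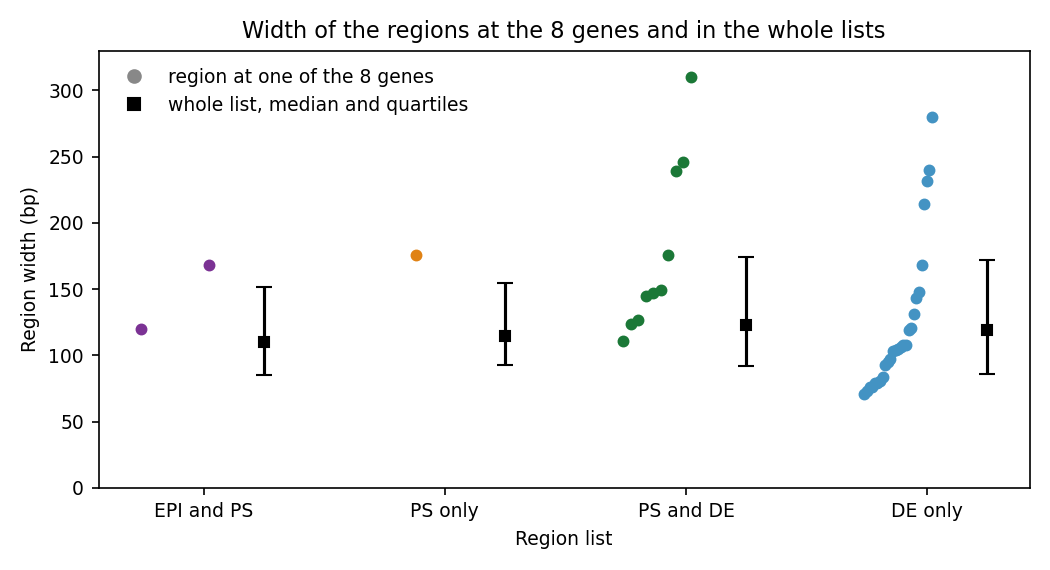
Width in bp of each region at the 8 genes (coloured points) beside the median and quartiles of its whole list (black square and bars). Of 10 PS and DE regions, 9 lie above the list median of 123 bp, and of 27 DE only regions, 9 lie above the list median of 119 bp.

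The 8 genes held a median of 4.5 regions, and all protein-coding genes a median of 1. At least 4 regions were held by 6 of the 8 genes and by 13.3% of all genes. The order of total counts was Esrrb (14), Utf1 (6), Klf4 and Prdm14 (5 each), Pou5f1 and Sall4 (4 each), Nanog (2) and Tfcp2l1 (0). By density the order was Utf1 (37.5 per 100 kb), Pou5f1 (18.6), Prdm14 (6.25), Esrrb (5.14), Sall4 (4.71), Nanog (3.82), Klf4 (2.89) and Tfcp2l1 (0). The upper quartile of density over all genes was 3.41 per 100 kb, above Klf4 and below Nanog. Counts of a few regions cannot separate neighbours in these orders.

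**Figure D5:**
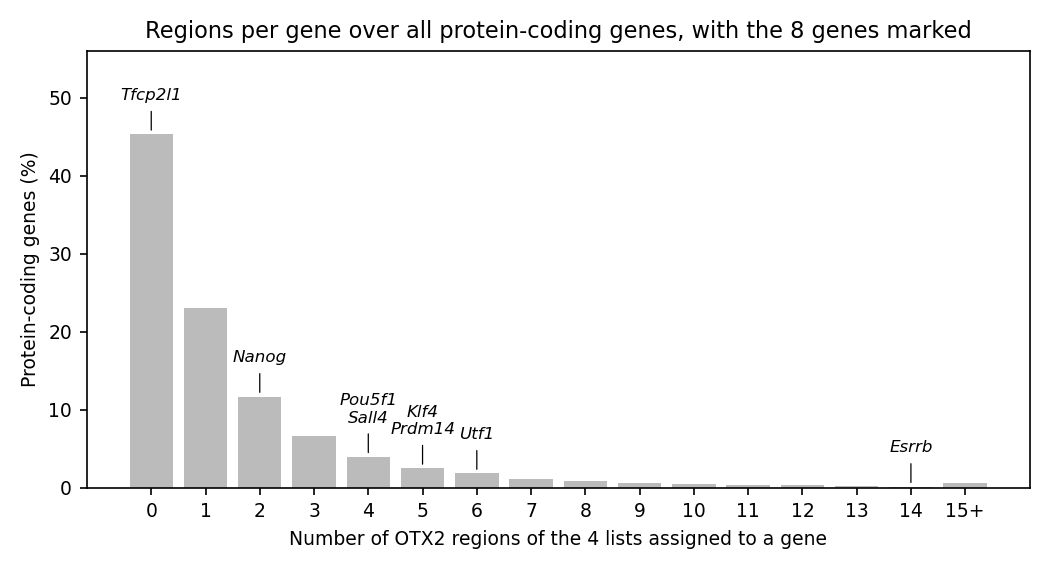
Share of 21883 protein-coding genes (y axis, %) by the number of regions assigned to a gene (x axis), with the 8 genes marked at their own counts. Genes with 0 regions make up 45.3%, and Esrrb stands at 14 regions.

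A list of 25 other pluripotency network genes held 97 regions, with a median of 3 per gene. EPI and PS regions lay at 2 of the 25, PS only at 3, PS and DE at 9 and DE only at 22. The most regions were at Jarid2, a PRC2 cofactor gene (13), the T-box gene Tbx3 and the zinc finger gene Zfp281 (11 each), the LIF receptor gene Lifr (10), the growth regulator gene Myc (7) and Tet2, which encodes a 5-methylcytosine oxidase (6). Zfp281 and Lin28a held the EPI and PS regions. Dppa2, Fgf4 and Nr0b1 held 0 regions. A list of 15 primed epiblast genes held 89 regions, with a median of 5 per gene. EPI and PS regions lay at 0 of the 15, PS only at 4, PS and DE at 11 and DE only at 13. Among those with the most regions were the N-cadherin gene Cdh2 (17), Lef1, which encodes a WNT effector, and Otx2 itself (11 each), and the DNA methyltransferase gene Dnmt3a and the POU factor gene Pou3f1 (6 each). Dnmt3b held 0 regions. The shares of all genes given above for each list are the background for these counts too. Median territory was 119 kb for the 25 genes, 129 kb for the 15 and 45.1 kb for all genes. The part of territory length in these counts was not tested.

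Genes with the same count in each of the 4 lists were taken as most like each locus. Esrrb shared its counts with 2 genes, Pdss2 and Klhl6, Utf1 with 5, of which Gpr20 and Dmrtb1 were nearest in territory length, and Pou5f1 with 6, of which BC035044 and Cma2 were nearest. The counts of Sall4 were shared by 88 genes (nearest Zfp503 and Hspb8), those of Prdm14 by 142 (Clcn3 and Metap1d) and those of Klf4 by 193 (Ankef1 and Cep126). The territories of the genes named for Utf1 and Pou5f1 were all longer, 48.2 kb or more.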

How the data were processed

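OTX2 binding was measured by CUT&RUN on 500000 cells per sample, per the labels' protocols. The authors deposited 4 region lists without a header, with chromosome, start and end and no other value. The submitters' processing notes name mm10 and, among tools, MACS2 2.2.6, Bowtie2 2.3.5.1, Picard 2.26.10, SAMtools 1.14 and bedtools 2.30. How peaks were thresholded, whether IgG was used and how clones and stages were joined is not given in the sources used here. Starts were converted to count from 1. The 4 lists share 0 bases, and the DE only list has 2 regions on an unplaced scaffold, which got no gene.

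Genes and promoters came from RefSeq tables of GRCm38.p6. All 8 symbols matched, as did the 25 and 15 of the other lists. Promoter entries, which also give strand, were found for 6 of the 8 genes (9 entries); Sall4 and Prdm14 had none. Territories were measured on a grid of 100 bp. Places within genes are not split into exons, introns or UTRs, and no genome sequence was used here, so the planned motif count over all regions was not run. The assignment gave 0 mismatches at 2000 simulated positions against a direct search. Python 3.11.15, pandas 2.3.3, NumPy 2.4.6 and matplotlib 3.10.9 were used.

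The genes and lists were chosen with earlier results of these data known, so no chance test was run. Named outside the 8 genes are up to 6 genes per list with the most regions, up to 2 with the same counts as each gene with 3 or more regions, and Lin28a, neighbours and genes at 0, singled out after their values were seen. A gene that this rule names is not reported here. Coordinates are given for every region of a list that includes PS and for the DE only region nearest the start. Alternatives covered the reach and kind of assignment, region width, merging, and the gene-end and neighbour windows.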

Additional observations from a re-analysis of the deposited data

How the results depend on the processing

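Assignment within 50 kb or within 1 Mb, by the nearest gene end alone, by any base in place of the midpoint, and after merging regions within 500 bp kept the 4 region counts and the 4 counts of genes hit within 1.5 times the reported ones. Counting every region within 100 kb, also those assigned to neighbours, gave 4 EPI and PS, 2 PS only, 21 PS and DE and 61 DE only regions, with PS only regions near 2 genes and DE only regions near all 8, Tfcp2l1 included. Among regions of at least 150 bp there were 1 EPI and PS, 4 PS and DE and 5 DE only regions, with EPI and PS at 1 gene and DE only at 4 genes. The shares of all genes given above are for the reported assignment and do not apply to these settings, so these counts have no background. Of the single values, Klf4 had 15 regions within 1 Mb, Nanog had 17 when neighbours' regions counted, and Esrrb had 3 of at least 150 bp. No paired analysis was possible because the lists carry no value per library, and leaving out a clone was not possible for the same reason. The search for TAATCC in all regions, as deposited or widened, was not run without genome sequence. Depth per library is unknown, so regions missed for lack of reads cannot be told from unbound ones.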
